A study of Schizosaccharomyces pombe with 2 samples.

Results

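The 10 genes described here make lysine (lys4, lys2, lys1, lys7, lys3) and arginine (arg11, arg1, arg5, arg3, arg12) in the fission yeast Schizosaccharomyces pombe. They were chosen by symbol from the 12606 annotated genes of the 3 nuclear chromosomes, and all 10 were found. Polyadenylated 3′ ends of total RNA were read in 1 library from a strain whose seb1 gene is driven by the nmt1 promoter (nmt1-SEB1) and 1 made from the wild type. Thiamine, the repressor of the nmt1 promoter, was in the minimal medium of both strains. The nmt1-SEB1 strain is a knock-out by some labels and a knockdown by the series design. Its library held 3376142 reads and the wild-type library 2702105, and 8092 nmt1-SEB1 reads against 6062 wild-type reads fell on the 10 genes. The targeted gene had 826 reads in nmt1-SEB1 against 1848 in wild type (ratio 0.362, 95% interval 0.333 to 0.393). With 1 library per group no difference below has a replicate check: every interval and test compares these 2 libraries, covers counting error only, and says nothing of the spread between cultures.

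Fungi build lysine from 2-oxoglutarate through the alpha-aminoadipate route, in which lys4 encodes homocitrate synthase, lys2 homoaconitate hydratase, lys1 aminoadipate-semialdehyde dehydrogenase, lys7 the phosphopantetheinyl transferase that activates it, and lys3 the saccharopine dehydrogenase that releases lysine. Arginine is built from glutamate by way of ornithine: arg11 encodes a fused acetylglutamate kinase and reductase, arg1 acetylornithine aminotransferase, arg5 a subunit of carbamoyl-phosphate synthase, arg3 ornithine carbamoyltransferase and arg12 argininosuccinate synthase. Seb1 is the fission yeast relative of budding yeast Nrd1 and binds nascent transcripts near their 3′ ends, and the study asks what its loss does to poly(A) site selection.

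The sequences around the most used ends before the next same-strand gene start are shown for 6 genes and for lys4. In the 6 genes the largest cluster of ends differed between the libraries, while in lys4 it was the same. Each run below gives 30 bases of the RNA strand, written as DNA from the RefSeq genome, and the capital marks the deposited end position. The first line of each gene is the largest cluster in nmt1-SEB1 and the second the largest in wild type, while lys4 and arg3 have a single line each.
lys3 in nmt1-SEB1, chrI:531855-531884, plus strand, 246 nt past the stop codon: tatacacatttctctgcaaAcctcctttat
lys3 in wild type, chrI:531704-531733, plus strand, 95 nt past the stop codon: aaattaactttagaatacaAtttagacggc
lys2 in nmt1-SEB1, chrI:1678118-1678147, plus strand, 242 nt past the stop codon: tcccacattaaatatgttgAcattcttttc
lys2 in wild type, chrI:1678017-1678046, plus strand, 141 nt past the stop codon: aataatcgtcaataacttaAgcatacgaga
lys4 in both, chrII:3505706-3505735, minus strand, 335 nt past the stop codon: tattttaatttgaaaatttAtattagcacg
arg11 in nmt1-SEB1, chrI:2269588-2269617, minus strand, 421 nt past the stop codon: aaatctctatccttgcattActaacgcttc
arg11 in wild type, chrI:2269898-2269927, minus strand, 111 nt past the stop codon: cattaatccttgctattaaAtagccagcag
arg5 in nmt1-SEB1, chrII:4096292-4096321, plus strand, 416 nt past the stop codon: aaaatgactgataattataAtttatgtcta
arg5 in wild type, chrII:4096172-4096201, plus strand, 296 nt past the stop codon: tacagtgcttaaaaactttActtcatttgg
arg3 in nmt1-SEB1, chrI:2275651-2275680, plus strand, 675 nt past the stop codon: tttttcttgtcttccgccaAttccttccac
arg12 in nmt1-SEB1, chrII:449408-449437, minus strand, 353 nt past the stop codon: caagaataatgtcgaaaccAtcttgaatga
arg12 in wild type, chrII:449723-449752, minus strand, 38 nt past the stop codon: taataatgtcatactcaccAtgtacttgag
The end base was A in all of these runs. Among all nuclear reads it was A for 92.1% in nmt1-SEB1 against 92.5% in wild type, and the base after it was A for 0.271% in nmt1-SEB1 against 0.281% in wild type. The deposited position is thus the last base of any genomic run of A, and the exact cleavage point within such a run was not resolved.

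Of the 8 genes with a pair of clusters to compare, 7 had a larger share of reads in the distal cluster in nmt1-SEB1, 0 a smaller one and 1 neither. The called genes were lys2, lys3, arg11, arg1, arg5, arg3 and arg12. A cluster gathers the reads within 24 nt of its most used position, and the pair is the 2 clusters with the largest mean share over both libraries. A call needed a Benjamini-Hochberg adjusted p under 0.05 over all 2943 genes in a two-sided Fisher's exact test and a difference of at least 10 percentage points. Among all 2943 genes 67.4% were called higher and 3.98% lower by the same rule, so a higher distal share was the common outcome in these libraries. The median difference was 66.9 points over the 8 genes and 25.5 over all genes tested (quartiles 8.55 and 51.3). A cluster entered a pair with 5% of reads in either library. The distal clusters of lys1, arg11, arg1, arg3 and arg12 were under 5% in wild type and entered through nmt1-SEB1, where they are high. The differences and calls of these genes, and the median over the 8 genes, are thus a description, and no p is given for them. Of the called genes, only lys2, lys3 and arg5 had a distal cluster with at least 5% of reads in wild type. With the pair chosen on wild type alone, 4 of the 6 genes that could then be compared were called, beside 48.6% of 2262 genes, and arg3 and arg12 had no such pair. The differences were then 47.6 points for arg11, 28.4 for arg5, 14.1 for arg1 and 11.8 for lys3, against 90.1, 57.6, 29.6 and 66.3 with the pair chosen on both libraries. These are differences between other sites. The pairs chosen on wild type lay at 111 and 247 nt for arg11, 78 and 296 nt for arg5, 244 and 277 nt for arg1, and 95 and 122 nt for lys3. They leave out the distal clusters at 421, 416, 367 and 246 nt.

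**Figure D1:**
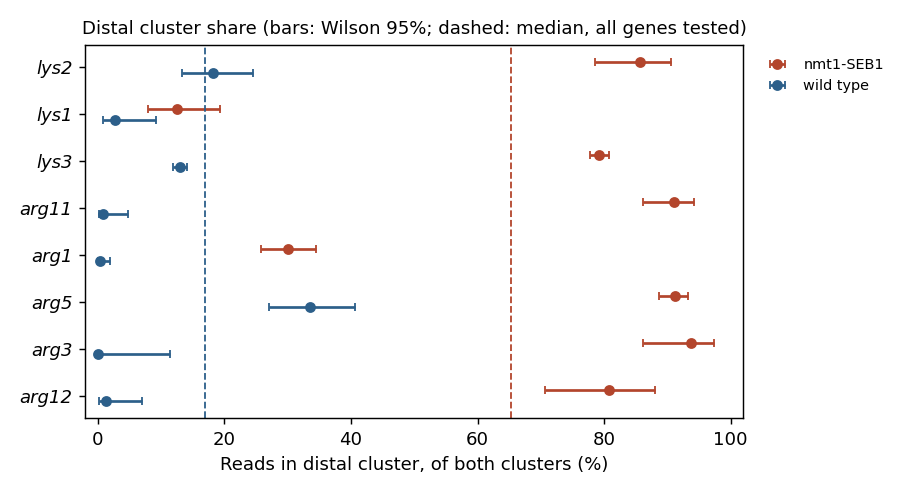
Share of the reads of both clusters that lay in the distal one (percent, x axis) for 8 genes, with nmt1-SEB1 above wild type in each row. Bars are Wilson 95% intervals and the dashed lines are the medians over all 2943 genes tested, 65.3% in nmt1-SEB1 against 16.9% in wild type. The intervals overlap for lys1 and are apart for the other 7 genes.

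In the lysine route, lys3 had the most reads. This gene of the last step (SPAC227.18, chromosome I, 530279 to 531981, plus strand) had 593 of 4670 reads past the stop codon (12.7%) in the cluster at 95 nt in nmt1-SEB1, against 2986 of 4013 (74.4%) in wild type. The cluster at 246 nt held 2263 reads (48.5%) in nmt1-SEB1 against 442 (11%) in wild type. Further out, at 612 nt, lay 893 reads (19.1%) in nmt1-SEB1 against 2 (0.0498%) in wild type. lys3 thus ended mostly beyond the first large site in nmt1-SEB1 and mostly at it in wild type, and the site 259 nt past the annotated end was hardly used in wild type. The mean end lay 303 ± 2.45 nt past the stop codon in nmt1-SEB1 against 114 ± 0.869 nt in wild type (SE over reads).

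lys2 (SPAC343.16, chromosome I, 1675802 to 1678118, plus strand) used 3 main sites. The cluster at 66 nt held 7 of 159 reads (4.40%) in nmt1-SEB1 against 66 of 264 (25%) in wild type, and that at 141 nt held 19 (11.9%) in nmt1-SEB1 against 148 (56.1%) in wild type. At 242 nt, 19 nt past the annotated end, lay 113 reads (71.1%) in nmt1-SEB1 against 33 (12.5%) in wild type. The share of the distal cluster in the pair was 85.6% in nmt1-SEB1 against 18.2% in wild type (adjusted p = 1.10e-33, Fisher's exact test). With the pair chosen on wild type alone, which takes the sites at 66 and 141 nt, the difference was 3.92 points and the call ended.

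lys4 and lys1 had the same largest cluster in both libraries. In lys4 (SPBC1105.02c, chromosome II, 3505708 to 3507548, minus strand) the cluster at 335 nt held 1103 of 1147 reads (96.2%, 95% Wilson limits 94.9 and 97.1) in nmt1-SEB1 against 593 of 618 (96.0%, 94.1 and 97.2) in wild type. No second cluster of lys4 reached 5% in either library, so it had no pair to compare. In lys1 (SPAP7G5.04c, chromosome I, 3739076 to 3743449, minus strand) the cluster at 86 nt, on its annotated end, held 112 of 148 reads (75.7%, 68.2 to 81.9) in nmt1-SEB1 against 73 of 87 (83.9%, 74.8 to 90.2) in wild type. The distal cluster of its pair, at 233 nt, held 16 of 128 reads (12.5%) in nmt1-SEB1 against 2 of 75 (2.67%) in wild type, a difference of 9.83 points that fell short of the 10 required. lys1 was called higher when both libraries were thinned to the same number of reads, and its difference was negative under 4 other choices of clusters. lys7 (SPAC17C9.02c, chromosome I, 4496725 to 4498140, plus strand), whose 3′ end overlaps the start of nuc2 on the same strand, had 2 reads in nmt1-SEB1 against 21 in wild type between its stop codon and 1000 nt past its end, a stretch it shares with nuc2, and these were too few to compare ends.

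**Figure D2:**
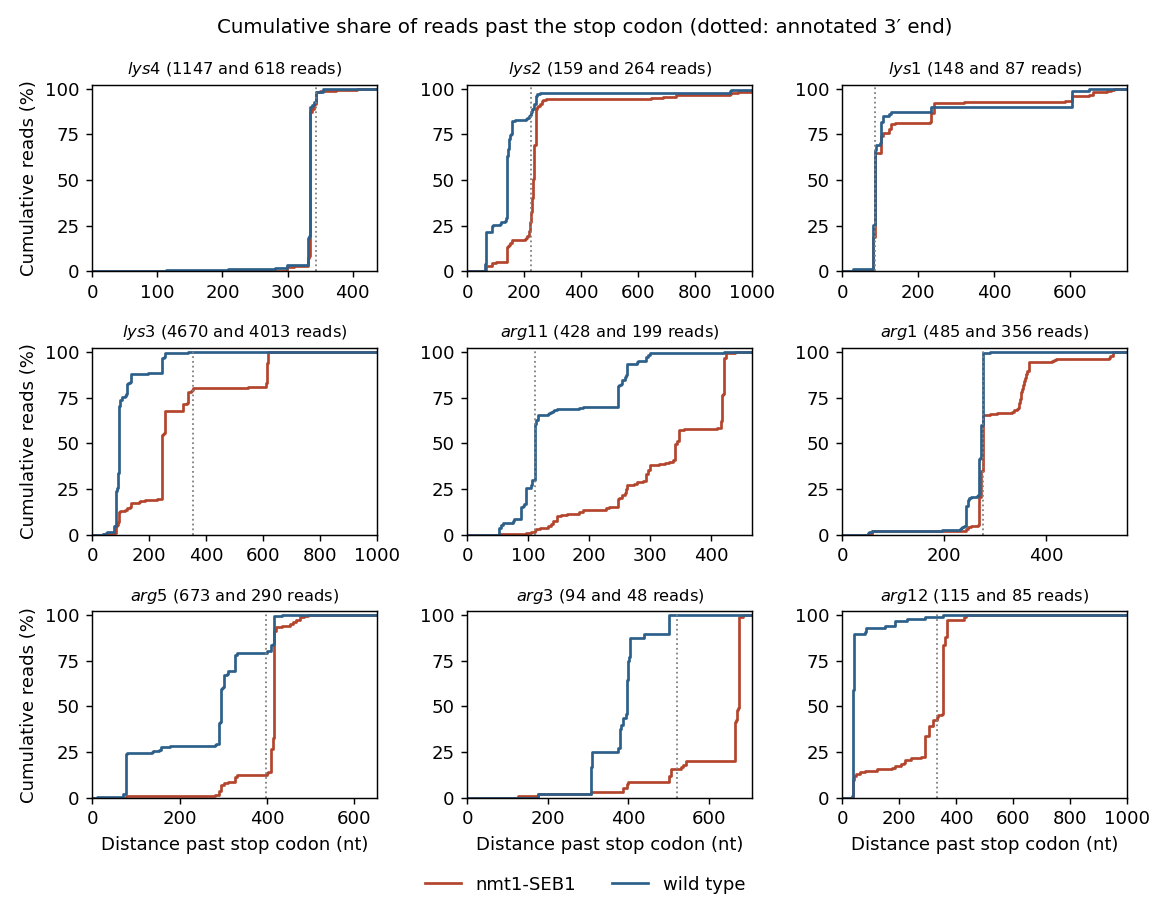
Cumulative share of reads (percent, y axis) by distance past the stop codon (nt, x axis) for the 9 genes with at least 20 such reads in each library. Titles give the reads in nmt1-SEB1 and then in wild type, and dotted lines mark the annotated 3′ end. The curves lie on each other for lys4, while for lys3, arg11, arg5, arg3 and arg12 nmt1-SEB1 rises further to the right.

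In the arginine route, all 5 genes met the rule for a higher distal share in nmt1-SEB1, of which arg5 alone has a distal cluster that wild type used for at least 5% of its reads. arg11 (SPAC4G9.09c, chromosome I, 2269908 to 2272724, minus strand) used a series of sites. Its cluster at 111 nt, on the annotated end, held 18 of 428 reads (4.21%) in nmt1-SEB1 against 115 of 199 (57.8%) in wild type. In nmt1-SEB1 59 reads (13.8%) lay at 247 nt, 82 (19.2%) at 341 nt and 181 (42.3%) at 421 nt, against 47 (23.6%), 0 and 1 (0.503%) in wild type. The 0 of 199 reads at 341 nt allows a share of up to 1.89% in wild type (Wilson upper limit). The mean end of arg11 lay 330 ± 4.69 nt past the stop codon in nmt1-SEB1 against 151 ± 5.51 nt in wild type.

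arg1 (SPCC777.09c, chromosome III, 1613047 to 1614936, minus strand) had the same main site in both libraries and a further one in nmt1-SEB1. The cluster at 277 nt, on its annotated end, was the largest in both libraries, with 299 of 485 reads (61.6%) in nmt1-SEB1 against 284 of 356 (79.8%) in wild type. At 367 nt lay 128 reads (26.4%) in nmt1-SEB1 against 1 (0.281%) in wild type, and at 531 nt 19 reads (3.92%) in nmt1-SEB1 against 0 in wild type. At 244 nt, before the main site, it was the other way round, with 12 reads (2.47%) in nmt1-SEB1 against 62 (17.4%) in wild type. The mean end differed by 40.6 nt, and the median end, at 277 nt in nmt1-SEB1 against 272 nt in wild type, by 5 nt.

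arg5 (SPBC56F2.09c, chromosome II, 4094270 to 4096292, plus strand) is followed by the lncRNA SPNCRNA.6434, which starts 257 nt past its end. Before that start, arg5 had 1 main site in nmt1-SEB1 against 3 in wild type. The cluster at 78 nt held 5 of 673 reads (0.743%) in nmt1-SEB1 against 70 of 290 (24.1%) in wild type. That at 296 nt held 53 (7.88%) in nmt1-SEB1 against 119 (41.0%) in wild type. At 416 nt, 19 nt past the annotated end, lay 547 reads (81.3%) in nmt1-SEB1 against 60 (20.7%) in wild type. Within this window, the site that nmt1-SEB1 used most was thus also used in wild type, as in lys2 and lys3. Beyond the lncRNA start, a cluster 812 nt past the arg5 stop codon held 918 reads in nmt1-SEB1 against 39 in wild type. Whether those RNAs began at arg5 or at the lncRNA cannot be told apart.

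arg3 and arg12 had different main sites in the 2 libraries, and each was used little in the other library. In arg3 (SPAC4G9.10, chromosome I, 2273921 to 2275516, plus strand) the cluster at 396 nt held 5 of 94 reads (5.32%) in nmt1-SEB1 against 30 of 48 (62.5%) in wild type. The cluster at 675 nt, 154 nt past the annotated end, held 75 (79.8%, Wilson interval 70.6 to 86.7) in nmt1-SEB1 against 0 in wild type, where 0 of 48 allows up to 7.41%. In arg12 (SPBC428.05c, chromosome II, 449440 to 451025, minus strand) the cluster at 38 nt held 15 of 115 reads (13%) in nmt1-SEB1 against 76 of 85 (89.4%) in wild type. The clusters at 289 and 353 nt held 20 (17.4%) and 63 (54.8%) in nmt1-SEB1 against 1 each (1.18%) in wild type. The mean end of arg12 was 288 ± 10.5 nt past the stop codon in nmt1-SEB1 against 54.3 ± 5.77 nt in wild type, and that of arg3 624 ± 11.3 nt in nmt1-SEB1 against 382 ± 8.99 nt in wild type.

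Across the 10 genes, 9 had 20 or more reads past the stop codon in each library. In nmt1-SEB1 the mean end lay at least 20 nt further from the stop codon for 7 of them, at least 20 nt closer for 0, and within 20 nt for lys4 and lys1. Among all 3672 genes compared, 74.3% lay further out and 2.83% closer, so 7 of 9 is near the background. With lncRNA annotations ignored the difference became 74.7 nt for lys4, against 2.93 nt otherwise, and 60.3 nt for lys1, against 3.23 nt. All 9 genes then lay at least 20 nt further out in nmt1-SEB1, as did 80.7% of all genes. The median difference was 138 nt over the 9 genes and 65.9 nt over all genes (quartiles 18.8 and 157). The largest difference among the 9 was that of arg3, 242 nt, followed by arg12 with 234 nt and lys3 with 189 nt. This order depends on where the windows end. With lncRNA annotations ignored, arg3 was at 344 nt and arg5 at 308 nt, against 138 nt for arg5 otherwise, while arg12 and lys3 were unchanged.

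Read-through is the reads that ended over 200 nt beyond the largest cluster, as a share of all past the stop codon. The largest cluster is here that of the largest mean share over both libraries. It was the main wild-type site for arg12 (38 nt), arg11 (111 nt) and lys3 (95 nt), and the main nmt1-SEB1 site for lys2 (242 nt) and arg5 (416 nt). Read-through was higher in nmt1-SEB1 for arg12, arg11 and lys3. A gene was counted where the Wilson intervals did not overlap and the shares differed by at least 5 points, which held for 3 of 7 genes with room in the window. By the same rule 45.0% of 2969 genes were higher and 1.11% lower. arg12 had 79.1% in nmt1-SEB1 against 2.35% in wild type, arg11 61.7% in nmt1-SEB1 against 0.503% in wild type, and lys3 32.3% in nmt1-SEB1 against 0.822% in wild type. The rule was not met, in nmt1-SEB1 against wild type, by lys2 (5.66% against 2.27%), lys1 (8.11% against 10.3%), arg1 (3.92% against 0%) and arg5 (0% in both). lys4 and arg3 had no room, since a lncRNA annotated on the same strand starts 96 and 188 nt past their ends. For arg3 this also followed from its largest cluster being the nmt1-SEB1 site at 675 nt. Measured from its main wild-type site, at 396 nt, arg3 had room. With the largest cluster taken from wild type alone, 4 of 8 genes were higher and 0 lower, beside 51.3% and 0.453% of 3089 genes. The windows of arg1 and arg5 ended 560 and 653 nt past the stop codon, with their largest clusters at 277 and 416 nt. Their shares thus cover only a short stretch, and the reads of the lncRNA past arg5, given below, lie outside it.

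The lncRNAs that follow lys4, arg5, arg3 and lys1 had many more reads in nmt1-SEB1. SPNCRNA.6434 starts 257 nt past the end of arg5 and had 993 reads in nmt1-SEB1 against 48 in wild type (ratio 16.8, 95% interval 12.5 to 22.9). Of these, 918 in nmt1-SEB1 against 39 in wild type lay in a cluster 812 nt past the arg5 stop codon. SPNCRNA.6155, past lys4, had 456 reads in nmt1-SEB1 against 31 in wild type (ratio 11.9, 8.28 to 17.7), spread over its length. SPNCRNA.3020, past arg3, had 120 in nmt1-SEB1 against 0 in wild type, and SPNCRNA.3667, 665 nt past lys1, had 27 in nmt1-SEB1 against 0 in wild type. With wild type set to a floor of 3 reads per library, the ratios of SPNCRNA.3020 and SPNCRNA.3667 were 32.4 and 7.29. The 95% lower limits of their ratios from the counts were 26 and 5.53. Those next past lys3 and arg12, 1746 and 1357 nt away, had 13 and 4 reads in nmt1-SEB1 against 10 and 2 in wild type. Among 2840 lncRNA genes with 20 or more reads over both libraries, 79.9% met the 2-fold rule used below for abundance as higher in nmt1-SEB1, and 3.27% as lower. A 3′ end read does not tell where its RNA began, so long transcripts of the upstream gene and the lncRNA's own transcripts cannot be told apart here. Of the coding genes that follow within 1000 nt on the same strand, rpc2, past arg11, had 41 reads in nmt1-SEB1 against 12 in wild type (ratio 2.77, 1.43 to 5.79), bit61, past arg1, had 831 in nmt1-SEB1 against 482 in wild type (1.40, 1.25 to 1.57), and puf1, past arg5, had 42 in nmt1-SEB1 against 53 in wild type (0.642, 0.418 to 0.981).

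With lncRNA annotations ignored, reads past the annotated 3′ end took a larger share in nmt1-SEB1 for 8 of 9 genes, lys1 being the exception, by the same rule of intervals and 5 points. Among all 3727 genes 61.3% were higher and 0.644% lower. lys4 had 307 of 1429 reads there (21.5%, 19.4 to 23.7) in nmt1-SEB1 against 28 of 632 (4.43%, 3.08 to 6.33) in wild type, and 282 of these in nmt1-SEB1 against 14 in wild type lay beyond the start of SPNCRNA.6155. With the window ended at that start, its shares differed by -0.0858 points. arg5 had 95% in nmt1-SEB1 against 32% in wild type, which include the reads of SPNCRNA.6434. In nmt1-SEB1 against wild type, the shares were 97.4% against 39.7% for arg11, 86.6% against 0% for arg3, 73.0% against 14.4% for lys2, and 57.4% against 1.18% for arg12. For the others, again in nmt1-SEB1 against wild type, they were 34.6% against 0.843% for arg1, 21.0% against 0.174% for lys3, and 40.4% against 33.3% for lys1.

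**Figure D3:**
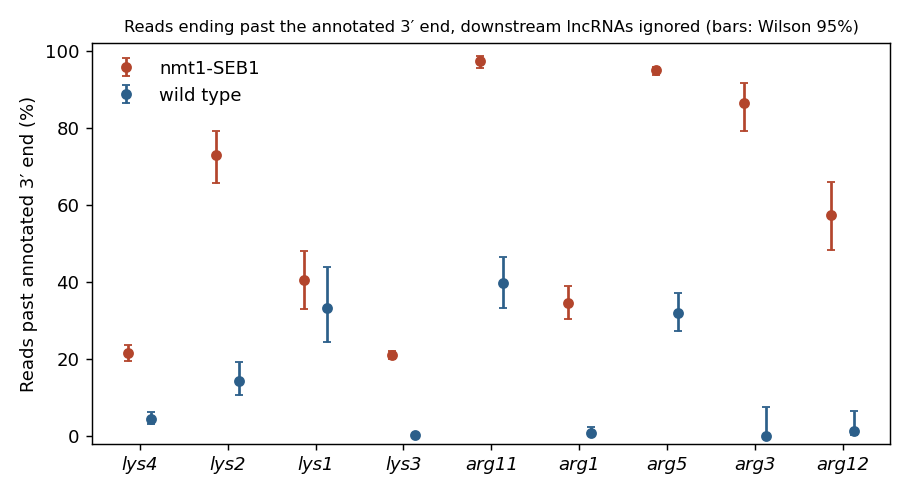
Share of reads past the stop codon that end beyond the annotated 3′ end (percent, y axis), up to 1000 nt past it or the next coding or other non-lncRNA gene on the strand, with nmt1-SEB1 left of wild type. Bars are Wilson 95% intervals. They overlap for lys1 and not for the other 8 genes.

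In lys3 and arg3 most nmt1-SEB1 reads ended inside a convergent coding gene on the other strand. The annotated 3′ ends of lys3 and psr1 overlap by 188 nt, and 3832 of 4670 lys3 reads (82.1%, 80.9 to 83.1) ended inside psr1 in nmt1-SEB1, against 484 of 4013 (12.1%, 11.1 to 13.1) in wild type. arg3 and cmb1 overlap by 14 nt, and 79 of 94 arg3 reads (84.0%, 75.3 to 90.1) ended inside cmb1 in nmt1-SEB1, against 0 of 48 in wild type (up to 7.41%). On their own strand psr1 had 368 reads in nmt1-SEB1 against 377 in wild type (ratio 0.791, 0.683 to 0.915), and cmb1 had 6079 in nmt1-SEB1 against 3142 in wild type (1.57, 1.5 to 1.64). Opposite-strand lncRNAs are annotated over the arg5 clusters at 296 and 416 nt (SPNCRNA.6433) and over those of arg11 at 111 and 247 nt (SPNCRNA.3017) and at 421 nt (SPNCRNA.3016). How often other genes end inside an opposite-strand gene was not counted. lys1 and lys2 lie wholly within the annotated extent of opposite-strand genes, prm1 and wdr70. Reads on the strand opposite lys1 numbered 382 in nmt1-SEB1 against 119 in wild type (ratio 2.60, 2.11 to 3.22), and those opposite lys2 95 in nmt1-SEB1 against 56 in wild type (1.37, 0.978 to 1.95). arg11 and arg3 are neighbours that are transcribed away from each other, with 1196 nt between their annotated starts.

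Few of the 10 genes met the rule for a difference in abundance. By the rule used, a ratio of at least 2 or at most 0.5 with a 95% interval that excludes 1, 0 genes were higher and 2 lower in nmt1-SEB1. Among 4701 coding genes with 20 or more reads over both libraries, 26.0% were higher and 17.0% lower. Under TMM scaling these shares were 13.8% higher and 33% lower, and under median-of-ratios 12.2% higher and 36.2% lower. The median log2 ratio was 0.27 over the 10 genes and 0.20 over all coding genes. Levels are in RPM (reads-per-million of the reads assigned to genes), where 1 read was worth 0.301 RPM in nmt1-SEB1 against 0.372 RPM in wild type. Each RNA gives a single 3′ end, so RPM was not divided by gene length.

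lys2 and lys7 were the lower genes. lys2 had 162 reads (48.8 RPM) in nmt1-SEB1 against 267 (99.3 RPM) in wild type, a ratio of 0.492 (0.402 to 0.600), just inside the limit. Its log2 ratio of -1.02 became -0.94 with reads counted up to 200 nt past the gene end and, likewise, with lncRNA annotations ignored, which ended the call. lys7 had 1.51 RPM (5 reads) in nmt1-SEB1 against 7.07 RPM (19 reads) in wild type, a ratio of 0.213 (0.0622 to 0.590). With reads past the stop codon alone lys7 fell under the 20-read minimum, as all 5 nmt1-SEB1 reads and 11 of the 19 wild-type reads ended before its stop codon.

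For 5 genes the ratio was above 1 with an interval that excluded 1, but below 2. arg5 had 204 RPM (677 reads) in nmt1-SEB1 against 108 RPM (290 reads) in wild type, a ratio of 1.89 (1.65 to 2.18). In nmt1-SEB1 against wild type, arg11 had 140 against 82.9 RPM (1.69, 1.44 to 1.99), arg3 28.6 against 17.8 RPM (1.60, 1.12 to 2.32), lys4 360 against 230 RPM (1.56, 1.42 to 1.73) and lys1 65.7 against 49.5 RPM (1.33, 1.07 to 1.66). lys3 was at 1407 RPM in nmt1-SEB1 against 1492 RPM in wild type (0.943, 0.904 to 0.984). The intervals of arg1 (147 RPM in nmt1-SEB1 against 134 RPM in wild type, ratio 1.10, 0.956 to 1.26) and arg12 (34.9 RPM in nmt1-SEB1 against 33.5 RPM in wild type, ratio 1.04, 0.786 to 1.39) included 1. Under TMM scaling each log2 ratio shifted by -0.68, and under median-of-ratios scaling by -0.79. Both sets of factors were computed over all annotated genes, lncRNAs included, and 79.9% of 2840 lncRNA genes were called higher. Factors over coding genes alone were not computed. Under TMM the values of lys4, lys1, arg1 and arg12 were below 0 and those of arg5 and arg11 above 0, so no direction is given for these small differences.

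**Figure D4:**
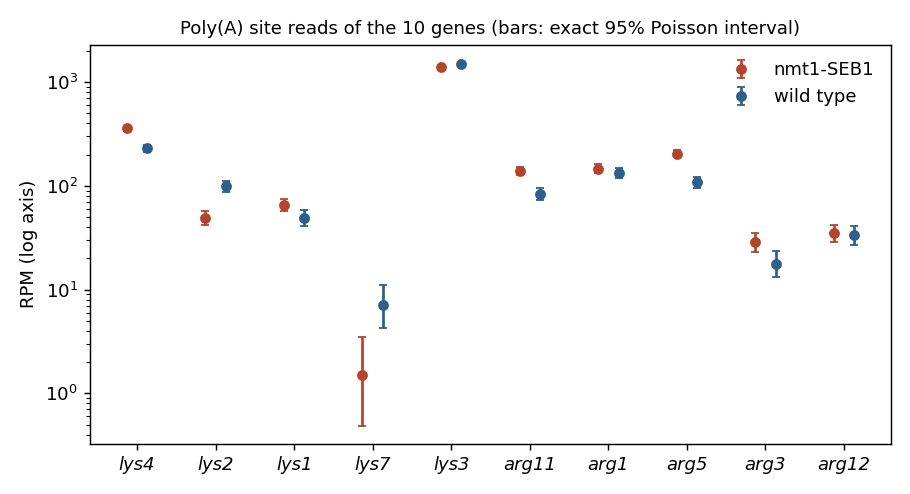
Level (RPM, log axis) of the 10 genes in order of their pathway steps, with nmt1-SEB1 left of wild type. Bars are exact 95% Poisson intervals. lys3 lies highest, at 1407 RPM in nmt1-SEB1 against 1492 RPM in wild type, and lys7 lowest, at 1.51 RPM in nmt1-SEB1 against 7.07 RPM in wild type.

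The order of levels was similar at the ends and differed in the middle. In nmt1-SEB1 it ran lys3, lys4, arg5, arg1, arg11, lys1, lys2, arg12, arg3 and lys7, and the intervals of arg1 and arg11, of lys2 and arg12, and of arg12 and arg3 overlapped. In wild type it ran lys3, lys4, arg1, arg5, lys2, arg11, lys1, arg12, arg3 and lys7, and the intervals of neighbours from arg1 to arg11 overlapped.

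Reads that ended before the stop codon were 2.14% of all reads of the 10 genes in nmt1-SEB1 (1.84 to 2.48) and 1.55% in wild type (1.27 to 1.89), while over all coding genes they were 4.04% in nmt1-SEB1 and 2.43% in wild type. lys1 held the largest number, with 70 of 218 reads (32.1%, 26.3 to 38.6) in nmt1-SEB1 against 46 of 133 (34.6%, 27.0 to 43.0) in wild type. Its largest cluster within the coding sequence, 2290 nt after the start of the start codon, had 49 of the 70 reads in nmt1-SEB1 against 14 of the 46 in wild type. arg11 had 37 of 465 reads (7.96%) in nmt1-SEB1 against 24 of 223 (10.8%) in wild type, of which 34 in nmt1-SEB1 and 22 in wild type lay in 1 cluster, 1474 nt after the start of its start codon. In lys4 48 of 1195 reads (4.02%, 3.04 to 5.29) ended early in nmt1-SEB1 against 1 of 619 (0.162%, 0.0285 to 0.909) in wild type. Of these 48, 42 lay in 2 clusters in its 5′ UTR. The 3′ end of mrpl16 overlaps the start of lys4 on the same strand, so reads past the end of mrpl16 and early ends of lys4 cannot be told apart there.

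The element TGTA, the DNA form of UGUA, which contains the GUA known from Nrd1-like proteins, was searched on the RNA strand in the 100 nt after each cluster. After the proximal cluster it was found in 6 of the 8 genes, in lys2, lys1, lys3, arg1, arg3 and arg12 but not in arg11 and arg5. Over all 2943 genes 62.1% had it there. In arg12 it began 1 nt after the proximal end, as the tgta in its wild-type run above shows, and in arg1 17 nt after. In lys2, lys1, lys3 and arg3 it began 32, 40, 53 and 74 nt after. After the distal cluster TGTA was found in 2 of 8 genes, lys1 and arg12, and in 58.2% of all genes. GTA, which every TGTA contains, followed the proximal cluster in 8 of 8 genes (88.8% of all genes) and the distal one in 6 of 8 (89.0%). The poly(A) signals AATAAA and AATGAA were searched in the last 50 nt up to the end. They were found at the proximal cluster of lys1 and the distal cluster of arg3, against 25.4% and 29.5% of all genes. In arg3 AATAAA began 29 nt before the end. In lys1 it began 5 nt before and runs onto the end base, so it does not lie upstream of the end. These are matches of letters, and which of them are bound was not measured.

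The other genes of both pathways went in both directions. Of 17 listed genes 15 were matched to the annotation and tested, and 6 were higher and 4 lower in nmt1-SEB1 by the rule above, with 5 neither, where all coding genes gave 26.0% and 17.0%. Under TMM 4 were higher and 5 lower (all coding genes 13.8% and 33%), and under median-of-ratios 3 were higher and 5 lower (12.2% and 36.2%). Of the 6 further synthesis genes, 3 were lower. lys9, the saccharopine dehydrogenase gene that acts just before lys3, had 7154 reads (2155 RPM) in nmt1-SEB1 against 16568 (6161 RPM) in wild type (ratio 0.350, 0.340 to 0.360). arg4, another carbamoyl-phosphate synthase gene, had 406 reads in nmt1-SEB1 against 699 in wild type (0.471, 0.415 to 0.533), and the glutamate N-acetyltransferase gene aga1 (SPBC1271.14) had 27 in nmt1-SEB1 against 148 in wild type (0.148, 0.0942 to 0.224). lys12, which encodes homoisocitrate dehydrogenase, was higher with 683 reads in nmt1-SEB1 against 273 in wild type (2.03, 1.76 to 2.34), a call that ended under TMM (log2 0.34). The acetylglutamate synthase gene arg6 (29 reads in nmt1-SEB1 against 25 in wild type, ratio 0.940, 0.531 to 1.67) and the argininosuccinate lyase gene arg7 (116 reads in nmt1-SEB1 against 62 in wild type, ratio 1.52, 1.10 to 2.10) were called in neither direction.

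Of the arginine breakdown genes, car1 was higher and car2, with the largest difference of the list, lower. The arginase gene car1 had 450 reads (136 RPM) in nmt1-SEB1 against 64 (23.8 RPM) in wild type (ratio 5.70, 4.38 to 7.52). The ornithine transaminase gene car2, the next step, had 132 reads (39.8 RPM) in nmt1-SEB1 against 1090 (405 RPM) in wild type (0.0981, 0.0813 to 0.118). Both calls held under TMM and median-of-ratios scaling. Among general amino acid control genes the eIF2 alpha kinase gene gcn2 was higher, with 249 reads in nmt1-SEB1 against 42 in wild type (4.80, 3.45 to 6.83), and so was gcn20, with 202 in nmt1-SEB1 against 62 in wild type (2.64, 1.98 to 3.57), whose call ended under TMM (log2 0.72). fil1, which encodes a GATA-type transcription factor, had 914 reads in nmt1-SEB1 against 1160 in wild type (0.638, 0.585 to 0.697), and was called lower under TMM (log2 -1.33) and median-of-ratios (log2 -1.44). gcn1 had 114 in nmt1-SEB1 against 99 in wild type (0.933, 0.706 to 1.23). The arginine and lysine transporter gene cat1 had 98 reads in nmt1-SEB1 against 57 in wild type (1.39, 0.995 to 1.97). any2, an arrestin-related adaptor gene, was higher with 73 reads in nmt1-SEB1 against 15 in wild type (3.94, 2.24 to 7.40), and so was vhc1, which the annotation calls a cation-chloride cotransporter, with 360 in nmt1-SEB1 against 86 in wild type (3.39, 2.67 to 4.34). The vhc1 call ended under median-of-ratios scaling (log2 0.97).

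Of these 15 genes, 10 had a pair of clusters to compare, and 7 had a higher distal share in nmt1-SEB1, 0 a lower one and 3 neither, which is near the 67.4% of all genes called higher. The share was 90.5% in nmt1-SEB1 against 23.5% in wild type for car1, and 46.3% in nmt1-SEB1 against 7.16% in wild type for car2, so both the higher and the lower breakdown gene had more distal ends. In nmt1-SEB1 against wild type, it was 84.8% against 16.7% for vhc1, 86.2% against 57.1% for cat1, 55.4% against 0% for gcn1, 54.3% against 34.7% for arg4, and 34.7% against 0.373% for lys12. The distal clusters of gcn1 and lys12, like that of lys9, were under 5% in wild type and entered through nmt1-SEB1, where they are high. Their differences are thus a description only. The rule was not met, in nmt1-SEB1 against wild type, by lys9 (8.48% against 0.0123%), arg7 (98.9% against 93.2%) and fil1 (81.3% against 87.4%).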

How the data were processed

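The deposited values are raw counts of reads that support a poly(A) site, listed by position and strand. Per the submitters' processing notes, Bowtie2 and build ASM294v2 were used. The Bowtie2 version and any read filter are not named in the sources used here. Genes and sequences came from the RefSeq genome supplied, whose header names ASM294v3; the share of end positions at A, above, was computed with it, taking positions as 1-based. Reads on other contigs (3026 in nmt1-SEB1, 4152 in wild type) were not used.

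Reads inside a same-strand gene were assigned to it, by nearest annotated 3′ end where genes overlap, and others to the closest gene that ends within 1000 nt before them with no gene start between. This placed 3319446 nmt1-SEB1 and 2689228 wild-type reads. Sites lay between the stop codon and the next same-strand start, at most 1000 nt past the gene end. Pairs held 20 or more reads in each library. Ratios carry conditional binomial (Clopper-Pearson) 95% intervals. Neither PCR copies nor replicates could be checked. No edgeR quasi-likelihood fit was possible with 1 library per group; edgeR 4.0.16 gave the TMM factors and DESeq2 1.42.0 the median-of-ratios factors. Python 3.11.15 with scipy 1.17.1 did the rest, tested on simulated data. The sequence of 1 site of arg3 is not reported here. All 10 genes and the 15 matched pathway genes are named. The members and lists were chosen with earlier results of these data known, and the share past the annotated end was added after the data were seen.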

Additional observations from a re-analysis of the deposited data

How the results depend on the processing

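No paired analysis was possible because each group has 1 library, and no library could be left out for the same reason. Counts of genes moved as follows. Abundance calls higher went to 1 with a 200 nt limit past the gene end (arg5) and to 3 with lncRNA annotations ignored (lys4, arg5, arg3), from 0. Abundance calls lower went to 1, from 2, with a minimum of 100 reads, with that 200 nt limit, with lncRNAs ignored and with reads past the stop codon only. Shares over all genes were not computed for these abundance settings. The higher calls of the pathway list went to 3, from 6, under median-of-ratios. Distal share calls went to 4 of 6 genes (48.6% of all genes), from 7 of 8 (67.4% of all genes), with clusters chosen on wild type alone. Read-through calls went to 5 of 9 (49.6% of all genes), from 3 of 7 (45.0% of all genes), with lncRNAs ignored. Reads short of the stop codon in nmt1-SEB1 went to 1.84% with lncRNAs ignored, from 2.14%.

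Log2 ratios turned negative under TMM for lys4 (-0.04), lys1 (-0.27), arg1 (-0.55), arg12 (-0.62), arg7 (-0.08) and cat1 (-0.20). Under median-of-ratios they did for lys4 (-0.14), lys1 (-0.38), arg11 (-0.03), arg1 (-0.65), arg3 (-0.11), arg12 (-0.73), arg7 (-0.19) and cat1 (-0.31). arg11 was at -0.31 with the 200 nt limit, since most of its nmt1-SEB1 reads lie further out. The distal share difference of lys1 was -4.89, -5.91, -5.60 and -5.60 points with clusters of 10 nt, of 50 nt, chosen on wild type alone, and first and last. Its read-through difference of -2.24 points was 6.28 at 100 nt and 5.18 with lncRNAs ignored. The read-through difference of arg1, 3.92 points, was 5.36 at 100 nt, where arg1 was called higher. At 100 nt 4 of 8 genes were called higher (53.3% of all genes). The share of lys4 past its annotated end differed by -0.0858 points with the window ended at the lncRNA. Apart from that of arg11, the cause of these changes was not tested beyond the construction of each alternative. Leaving out positions followed by 6 or more A in the next 10 nt moved no count of calls by over 1.5 times. That stretch starts after the deposited position, which is the last base of any run of A. A run of A at the end itself was thus not counted, and ends at such runs were not tested by this setting. Depth limits lys7 most, which had 5 nmt1-SEB1 reads against 19 in wild type.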
